A study of Macaca fascicularis with 2 samples.

Results

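PDE6H, BEX3, RCN3, KIAA1549, RFLNB, CHI3L2, LYPD1, GPC2, CA6 and BCL7A are 10 of the 29324 genes counted in CD4+CD8+ double-positive (DP) T cells from the blood of a cynomolgus monkey, and they were followed here by their symbols. They were chosen by their higher level in naive cells of these same data, so their level in naive cells against other T cells is a description and supports nothing. The cells came from fresh blood of 1 untreated male monkey, aged 10 years, by magnetic selection for CD4 and then for CD8. A 5′ gene library and a library of antibody tags against CD4 and CD8α were made from the same cells. With 1 animal and 1 pair of libraries there were no replicates, no test was possible, and every interval below covers counting error only.

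Naive T cells have left the thymus and have not yet met antigen; they recirculate through lymph nodes and carry CCR7, LEF1 and TCF7. The 10 genes are better known from other tissues. CA6 is a secreted carbonic anhydrase of saliva, and CHI3L2 is a secreted chitinase-like protein without chitinase activity. GPC2 is a glypican, a heparan sulfate proteoglycan anchored to the cell surface and known from developing neurons, and LYPD1 is an anchored surface protein of the Ly6 family. KIAA1549 is a membrane protein known from its fusion with BRAF in brain tumours. RCN3 binds calcium in the endoplasmic reticulum. PDE6H is the inhibitory subunit of the phosphodiesterase of cone photoreceptors, BEX3 is a small adaptor protein, and RFLNB binds filamin and shapes actin bundles. BCL7A is a subunit of the BAF chromatin remodelling complex.

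Of 8953 barcodes, 8830 cells passed the filter, with a median of 3145 gene UMIs (unique molecular identifiers, each counting 1 captured molecule) and 1127 genes. The T cell gate held 8508 cells. Naive cells had at least 3 UMIs summed over CCR7, LEF1 and TCF7 and none of GZMA, GZMB, GZMK, NKG7 or FOXP3, and numbered 4794. FOXP3-positive cells numbered 378, of which 227 also met the naive marker rule. The other 3336 T cells comprised 1398 cytotoxic cells, 434 memory helper cells, 231 GZMK cells, 40 cycling cells and 1233 remaining cells that met none of these rules. FOXP3-positive cells carried other regulatory T cell transcripts: IL2RA stood at 89.5 CPM (counts per 1000000 gene UMIs) in FOXP3-positive cells and at 4.55 CPM in naive cells, and CTLA4 at 105.0 and 14.95 CPM. As a background, 113 B control cells with B cell transcripts and at most 1 UMI of CD3 genes or TRAC were kept apart, with a median depth of 4549 UMIs against 2999 in naive cells. Levels are compared within a gene, since capture differs between genes.

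Each gene was sparse. RCN3 had a UMI in 2832 of the 8830 cells (32.1%), PDE6H in 2237, RFLNB in 1997 and CA6 in 1437. BEX3 was seen in 943 cells, GPC2 in 875, CHI3L2 in 651, BCL7A in 477, LYPD1 in 368 and KIAA1549 in 357. Among cells with a UMI, between 69.5% (RCN3) and 96.6% (KIAA1549) held a single one. Naive cells, which were 56.35% of T cells, held from 66.0% (CA6) to 79.9% (KIAA1549) of the T cell UMIs of these genes.

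All 10 genes stood at least 2-fold higher in naive than in other T cells, the contrast that chose them, while 2.76% of the 9849 genes with 50 or more UMIs did so. Among the secreted proteins, CA6 was at 74.3 CPM in naive cells and 35.2 CPM in other T cells, and CHI3L2 at 31.65 and 14.3 CPM. The surface proteins GPC2 and LYPD1 were at 43.9 against 14.8 CPM and at 17.45 against 8.40 CPM. KIAA1549 was at 18.3 CPM in naive cells (95% Poisson interval 16.3 to 20.5) and at 5.68 CPM (4.44 to 7.17) in other T cells. RCN3 was at 186.7 against 69.85 CPM. PDE6H was at 152.6 CPM (146.6 to 158.8) against 49.7 CPM (45.9 to 53.8), a log2 ratio of 1.62 (1.49 to 1.75). BEX3 was at 49.1 against 15.0 CPM, RFLNB at 118.0 against 41.6 CPM and the nuclear BCL7A at 21.7 against 6.80 CPM. The log2 ratios ran from 1.05 (LYPD1) to 1.71 (BEX3), with a median of 1.54 beside a median of -0.10 over all genes compared.

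The other T cells were not alike. The 1233 remaining cells, which were shallower (median 2722 UMIs), carried the 10 genes near the naive level: PDE6H at 125.9 CPM, RCN3 at 179.5 CPM, CA6 at 87.6 CPM and LYPD1 at 23.3 CPM. None of the 10 differed from naive cells by 2-fold there, where 0.535% of all genes were higher and 0.579% lower by that much. Without the remaining cells, a choice made after these values were seen, the median log2 ratio of naive over other T cells was 2.93, and all 10 genes stayed past 2-fold beside 5.78% of genes. PDE6H then stood at 152.6 against 18.2 CPM and BEX3 at 49.1 against 5.09 CPM. The naive threshold itself cut through a gradient. Among cells without granule UMIs, PDE6H was at 114.7 CPM in those with 2 naive UMIs and at 141.2 CPM in those with 3.

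**Figure D1:**
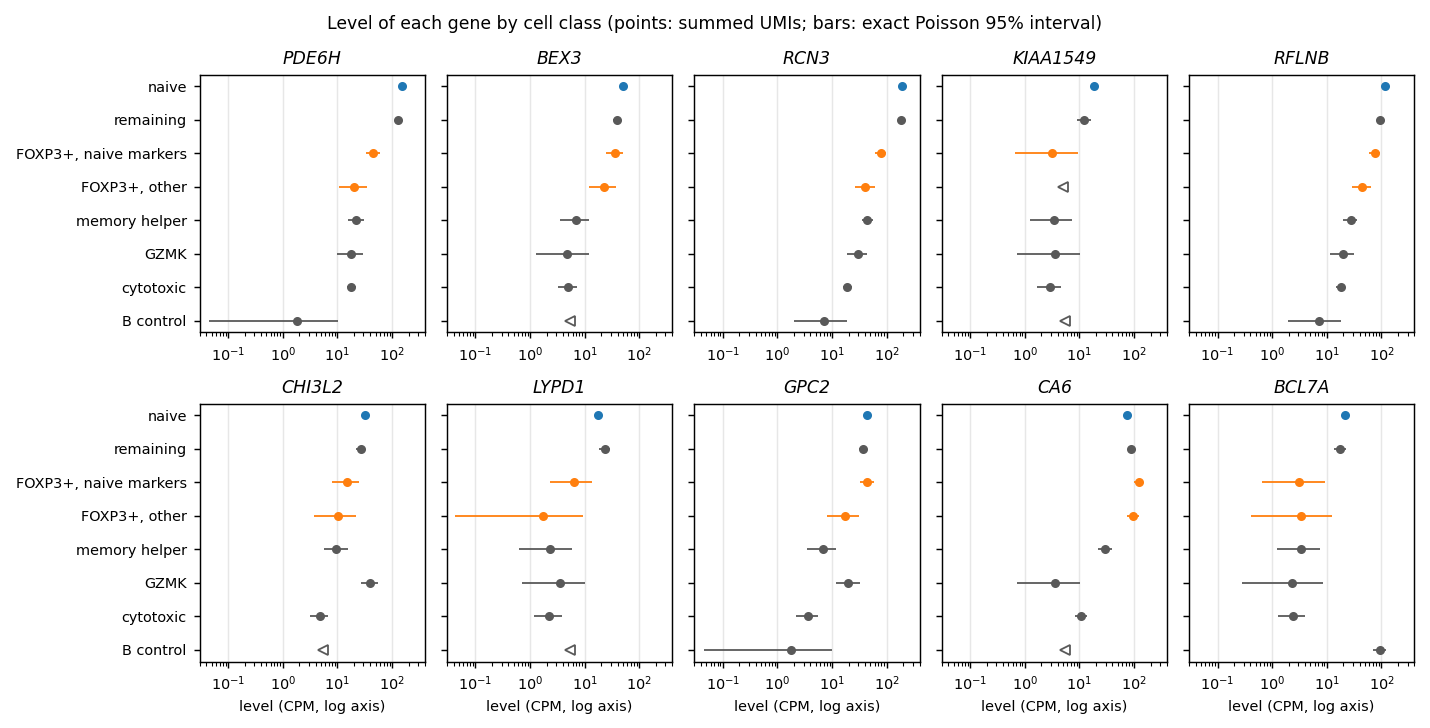
Level of each gene in 8 cell classes, in CPM on a log axis. Points are summed UMIs, bars the exact Poisson 95% intervals, and open triangles mark the limit of 3 UMIs where none was counted; the naive and remaining cells lie close together for all 10 genes, CA6 stays high in FOXP3-positive cells, CHI3L2 is high in GZMK cells and BCL7A in B control cells.

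The genes separated in FOXP3-positive cells, the regulatory T cell compartment. Compared with naive cells, 6 of the 10 were at least 2-fold lower, while 4.43% of 9010 genes were. The genes were chosen for a high level in these naive cells, so a lower level elsewhere is in part built in. The share of all genes does not correct for that choice. PDE6H stood at 35.7 CPM (26.9 to 46.4) against 152.6 CPM, a log2 ratio of -2.10 (-2.51 to -1.71). RCN3 stood at 64.2 CPM, with a log2 ratio of -1.54 (-1.84 to -1.25). CHI3L2 stood at 13.0 CPM and LYPD1 at 4.54 CPM, with log2 ratios of -1.29 and -1.94. BCL7A had 5 UMIs in all FOXP3-positive cells, a log2 ratio of -2.74 (-4.37 to -1.51), and KIAA1549 had 3, a log2 ratio of -3.24 (-5.52 to -1.67).

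The other 4 genes kept closer to the naive level or passed it. CA6 was higher in FOXP3-positive cells, at 112.2 CPM (96.1 to 130.2) against 74.3 CPM (70.1 to 78.6), a log2 ratio of 0.59 (0.36 to 0.83). GPC2 stood at 33.7 against 43.9 CPM, and its interval of the log2 ratio, -0.82 to 0.03, included 0. BEX3 and RFLNB were lower by less than 2-fold, with log2 ratios of -0.69 and -0.89. Against other T cells, 3 genes were at least 2-fold higher in FOXP3-positive cells (CA6 with a log2 ratio of 1.67, GPC2 with 1.19 and BEX3 with 1.02), beside 1.64% of all genes. On the same comparison KIAA1549 and BCL7A were at least 2-fold lower, beside 8.46%, but both intervals included 0. The naive and the FOXP3-positive comparison share their other T cells, so they are not independent.

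The 227 FOXP3-positive cells that met the naive marker rule were compared with naive cells in the same way. There, 6 genes were again at least 2-fold lower than in naive cells, beside 5.66% of genes, and they were the 6 above. The choice of the genes by their naive level bears on this count too. GPC2 was at 44.1 CPM against 43.9 CPM, a log2 ratio of 0.01 (-0.48 to 0.46). CA6 was at 121.8 CPM, a log2 ratio of 0.71 (0.43 to 0.99). The 151 FOXP3-positive cells that failed the naive rule, of which 41.1% still held a CCR7 UMI, had lower point values for every gene but BCL7A, which had 5 UMIs over both groups. Of the 5 genes with 50 or more UMIs over both FOXP3-positive groups, PDE6H (45.2 against 20.3 CPM) and GPC2 (44.1 against 16.9 CPM) were at least 2-fold higher in the cells that met the naive rule, beside 0.861% of genes. The genes were chosen for their level in cells that met this rule, so the direction repeats that choice in part. CA6 differed little between the FOXP3-positive groups, at 121.8 and 96.6 CPM, a log2 ratio of 0.33 (-0.13 to 0.82).

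**Figure D2:**
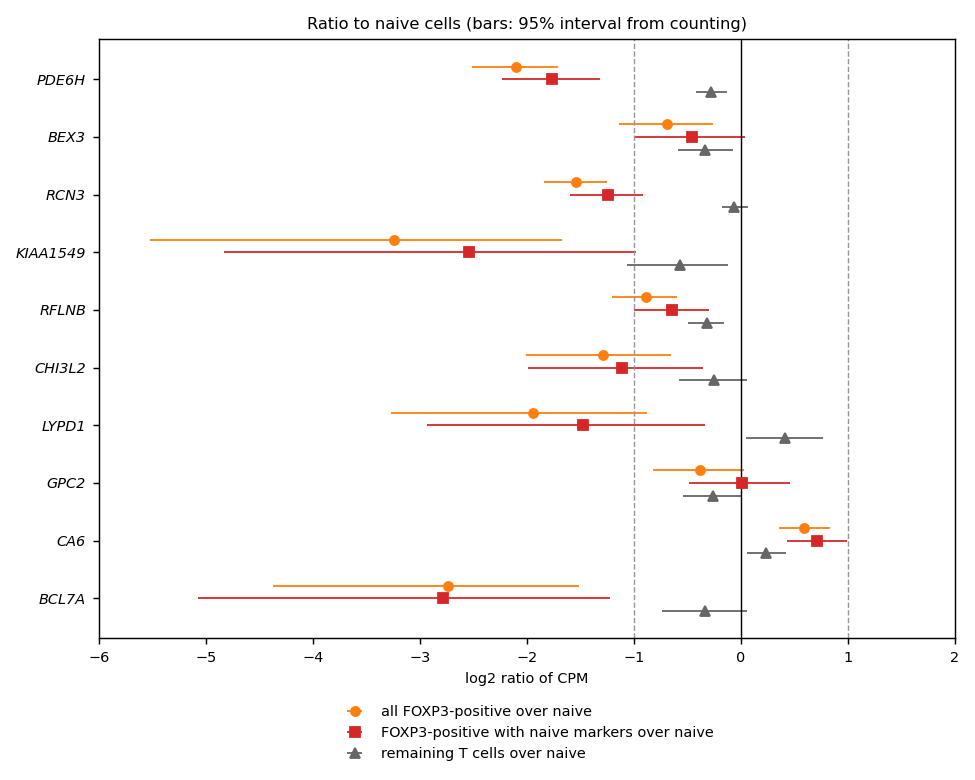
Log2 ratio of each gene's CPM to that in naive cells, with 95% intervals from counting, for all FOXP3-positive cells, for those with naive markers and for the remaining T cells. Dashed lines mark 2-fold; CA6 is right of 0 in all 3 groups, and PDE6H, RCN3, KIAA1549 and BCL7A lie past 2-fold to the left in both FOXP3-positive groups.

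The CD4 and CD8α tags divided the naive cells into 4020 CD4hiCD8lo, 659 CD4hiCD8hi, 102 CD4loCD8hi and 13 CD4loCD8lo cells, the last too few to describe. The transcripts followed the tags: CD4 RNA was at 98.75, 94.15 and 2.32 CPM and CD8A RNA at 45.8, 202.2 and 502.3 CPM over the first 3 gates. The 102 CD4loCD8hi cells held 1 CD4 UMI in all. Median depth was 2932, 3754 and 4039 UMIs.

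Of the 10 genes, 5 were at least 2-fold lower in naive CD4loCD8hi than in naive CD4hiCD8lo cells, beside 12.7% of 8506 genes. Most naive cells, 4020 of them, were CD4hiCD8lo, so this gate largely set the naive level that chose the genes. A lower level in the other gates is therefore in part built in, and the share of all genes does not correct for it. PDE6H had 17 UMIs in the CD4loCD8hi cells, or 39.35 CPM (22.9 to 63.0), against 169.4 CPM (162.3 to 176.7), a log2 ratio of -2.11 (-2.89 to -1.42). RCN3 stood at 69.4 against 202.5 CPM, a log2 ratio of -1.54 (-2.12 to -1.03). KIAA1549 and LYPD1 had 1 UMI each and BCL7A had 2, so their log2 ratios of -3.18 (-8.49 to -0.69), -3.04 (-8.35 to -0.55) and -2.32 (-5.37 to -0.45) are loosely bounded. BEX3 was just inside 2-fold, with a log2 ratio of -0.95 (-1.91 to -0.13).

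The remaining 4 genes had similar levels in both gates. CHI3L2 was at 39.35 against 33.9 CPM, a log2 ratio of 0.22 (-0.58 to 0.91). GPC2 was at 44.0 against 47.25 CPM, CA6 at 67.1 against 75.9 CPM and RFLNB at 94.9 against 122.2 CPM. All 4 intervals included 0 and reached at most a log2 ratio of -0.85 on the lower side, so a 2-fold lower level lay outside them.

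In naive CD4hiCD8hi cells all 10 genes were lower than in naive CD4hiCD8lo cells, with log2 ratios from -0.15 (CA6) to -1.16 (KIAA1549). Only KIAA1549 passed 2-fold, at 9.35 against 20.95 CPM, beside 0.703% of genes. PDE6H was at 96.9 against 169.4 CPM, a log2 ratio of -0.81 (-0.99 to -0.63). The intervals of CA6 and BCL7A included 0. These cells also differed in memory transcripts: 38.1% of naive CD4hiCD8hi cells held a UMI of S100A4 or ITGB1, against 13.3% of naive CD4hiCD8lo and 15.7% of naive CD4loCD8hi cells. A Scrublet score among the highest 6%, given to barcodes that resemble a mixture of 2 cells, was found in 9.56%, 4.28% and 0.980% of the 3 gates, and 11.7%, 1.17% and 3.92% of their cells were among the deepest 5% of all cells. The part of these features in the difference was not tested.

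Naive cells with a UMI of S100A4 or ITGB1, 806 of the 4794, were lower for all 10 genes. At an equal depth of 2200 UMIs a cell, the log2 ratio to naive cells without such a UMI ran from -0.61 (CHI3L2, -1.18 to -0.08) to -1.36 (GPC2, -2.0 to -0.78). This restates in part the choice of genes low in other T cells. S100A4 was at 3558 CPM in other T cells and 237.1 CPM in naive cells, and ITGB1 at 178 and 91.0 CPM. The tag gates were therefore compared again without these 806 cells, a choice made after the values were seen. PDE6H then stood at 140.8 against 182.5 CPM in CD4hiCD8hi and CD4hiCD8lo cells, a log2 ratio of -0.37 (-0.58 to -0.17). RFLNB was level, with a log2 ratio of 0 (-0.22 to 0.22), and CA6 and BCL7A had log2 ratios of 0.12 and 0.14 with intervals that included 0. None of the 10 passed 2-fold, beside 1.39% of genes. The CD4loCD8hi cells kept their difference: 6 genes were at least 2-fold lower, BEX3 now among them, beside 13.8% of genes, and PDE6H had a log2 ratio of -1.97 (-2.76 to -1.29). The choice of the genes by their naive level bears on this count as well.

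Sorting naive cells by coreceptor RNA in place of tags gave smaller differences. Between 678 naive cells with CD8A but no CD4 UMIs and 1017 with CD4 but no CD8A UMIs, none of the 10 genes passed 2-fold lower, beside 0.212% of genes. PDE6H was at 117.5 against 153.0 CPM and CHI3L2 at 26.2 against 36.4 CPM. RNA sorted the cells poorly, since a CD4 UMI was found in 26.1% of naive CD4hiCD8lo cells, and of the 678 cells only 85 were CD4loCD8hi by tag while 372 were CD4hiCD8lo, so these smaller differences say little about the gates.

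**Figure D3:**
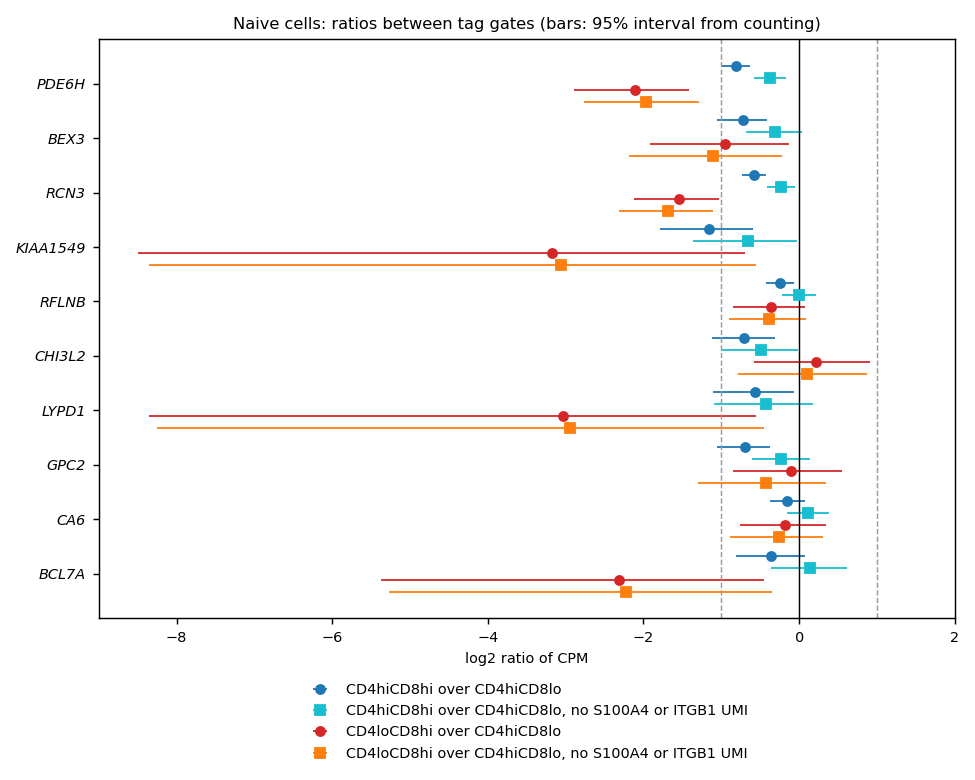
Log2 ratios of CPM between tag gates of naive cells, with 95% intervals from counting, for all naive cells (circles) and for those without S100A4 or ITGB1 UMIs (squares). Dashed lines mark 2-fold; PDE6H and RCN3 lie well below 0 in CD4loCD8hi cells by either choice, while RFLNB, CHI3L2, GPC2 and CA6 have intervals that include 0 there.

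Outside naive cells the genes had patterns of their own. CHI3L2 was at 39.7 CPM (27.5 to 55.4) in GZMK cells, near its naive level of 31.65 CPM, and at 4.75 CPM (3.16 to 6.87) in cytotoxic cells, a log2 ratio of 3.06 (2.30 to 3.84). Of the 5 genes with 50 or more UMIs over both groups, CHI3L2 alone was at least 2-fold higher, beside 2.25% of genes. CA6 alone was at least 2-fold lower, with 3 UMIs in GZMK cells and a log2 ratio of -1.61 (-3.93 to 0), beside 6.26%. GPC2, with fewer UMIs, was at 19.8 against 3.56 CPM, a log2 ratio of 2.48 (1.46 to 3.47). PDE6H in GZMK, cytotoxic and memory helper cells was at 17.5, 18.0 and 22.1 CPM. BCL7A was at 93.8 CPM (70.1 to 123) in B control cells, above its naive level of 21.7 CPM, whereas the B control cells held at most 4 UMIs of any other of the 10 genes.

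Between tag gates, cytotoxic cells went the other way from naive cells. PDE6H was at 27.8 CPM (22.3 to 34.4) in the 640 CD4hiCD8hi cytotoxic cells and at 8.27 CPM (4.73 to 13.4) in the 516 CD4hiCD8lo ones, a log2 ratio of 1.75 (0.97 to 2.62). All 4 genes with 50 or more UMIs there, PDE6H, RCN3, RFLNB and CA6, were at least 2-fold higher, beside 0.956% of genes. Scrublet scores were among the highest 6% in 21.7% of these CD4hiCD8hi cells and in 7.36% of the CD4hiCD8lo cells. At least 3 UMIs of CCR7, LEF1 and TCF7 were found in 21.4% and 6.20%. Without the high-scoring cells, left out after the values were seen, PDE6H fell from 86 to 14 UMIs in the first gate and from 16 to 4 in the second, and its log2 ratio of 1.5 had an interval, -0.17 to 3.56, that included 0. Without the deepest 5% of cells, also left out afterwards, the log2 ratio of PDE6H was 2.19 (1.25 to 3.26). The part of cell mixtures in this difference was not tested.

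Co-detection was read at an equal depth of 2200 UMIs a cell, which left 4436 naive cells. At least 1 of the 10 genes was seen in 74.4% of them, at least 2 in 41.6% (binomial 95% interval 40.1 to 43.1), at least 3 in 16.3% and at least 4 in 3.90%, and no cell held more than 6. By gate, 44.4% of naive CD4hiCD8lo, 29.5% of naive CD4hiCD8hi and 17.0% of naive CD4loCD8hi cells held at least 2. The share was 39.25% in the remaining cells, 21.1% in FOXP3-positive cells with naive markers, 10.6% in the other FOXP3-positive cells and 2.81% in cytotoxic cells. It was 0 of 111 in B control cells, which allows a share of up to 2.70% at a limit of 3 counts and of 3.27% by the upper bound of the exact binomial interval.

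Most pairs of the genes met in naive cells slightly more often than their single shares set. PDE6H and RCN3 were seen together in 479 cells where the product of their shares gave 409.6, a ratio of 1.17 (1.07 to 1.28). Over the 45 pairs the ratio had a median of 1.14 and ran from 0.62 (KIAA1549 and GPC2) to 1.38 (GPC2 and BCL7A). It was above 1 for 36 pairs. The interval lay above 1 for 6 pairs and below 1 for none. Within naive CD4hiCD8lo cells the median was 1.10 and the ratio was above 1 for 34 pairs. The interval lay above 1 there for 2 pairs, so in counts this sparse the excess is not read as a finding.

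**Figure D4:**
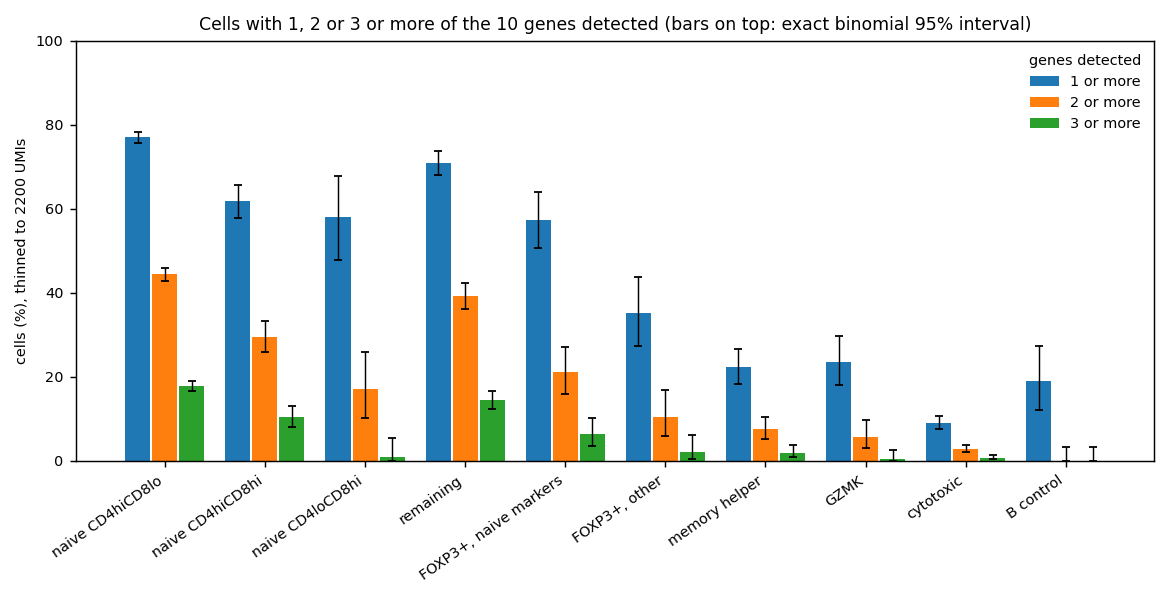
Share of cells, in percent after thinning to 2200 UMIs, with 1, 2 or 3 or more of the 10 genes detected, by cell class. Bars carry exact binomial 95% intervals; naive CD4hiCD8lo and remaining cells are highest, and 2 or more genes were seen in 2.81% of cytotoxic cells.

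Naive cells with more of the genes differed in other transcripts. Of the 10 genes on the thymic list, RAG1, PTCRA and SMPD3 had no UMI in naive cells, RAG2 had 2 and AQP3 had 31. RAG1 and RAG2 cut antigen receptor genes in thymocytes, and PTCRA is the pre-T cell receptor chain. The sum of the list, which rests on SATB1, CD1A, SOX4, DNTT and TOX2, was higher in the 725 thinned naive cells with at least 3 of the 10 followed genes than in the 1136 with none, a log2 ratio of 0.73 (0.59 to 0.86). SATB1 gave 478 of the 927 UMIs of the former cells. Of these 5 genes, 4 had intervals above 0. SOX4, a transcription factor of immature cells, had a log2 ratio of 1.21 (0.79 to 1.65), CD1A, a lipid-presenting molecule of cortical thymocytes, 1.02 (0.64 to 1.40), and SATB1, a chromatin organiser, 0.64 (0.46 to 0.83). DNTT, the terminal transferase of antigen receptor rearrangement, had 0.29 (-0.11 to 0.69). The 10 followed genes were selected for being low in other T cells, many of which are rich in memory transcripts. Both lists therefore restate that choice in part. On the thymic list, CD1A, SOX4, DNTT, SATB1 and TOX2 were themselves higher in naive than in other T cells. Their log2 ratios there were 1.92, 1.51, 1.45, 1.21 and 0.83. The thymic ratio was also smaller once cells with S100A4 or ITGB1 were left out, as given under the processing settings. The memory list was lower, with a log2 ratio of -1.85 (-1.96 to -1.74), led among its abundant genes by S100A4 at -4.89 and ITGB1 at -3.54. Other naive genes hardly moved, at 0.14 (0.09 to 0.20), and IL7R was lower, at -0.29 (-0.39 to -0.19). Cells with none of the genes were deeper before thinning, with a median of 3487 against 2943 UMIs. Within naive CD4hiCD8lo cells the thymic log2 ratio was 0.51 (0.36 to 0.65) and that of DNTT -0.03 (-0.45 to 0.39).

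**Figure D5:**
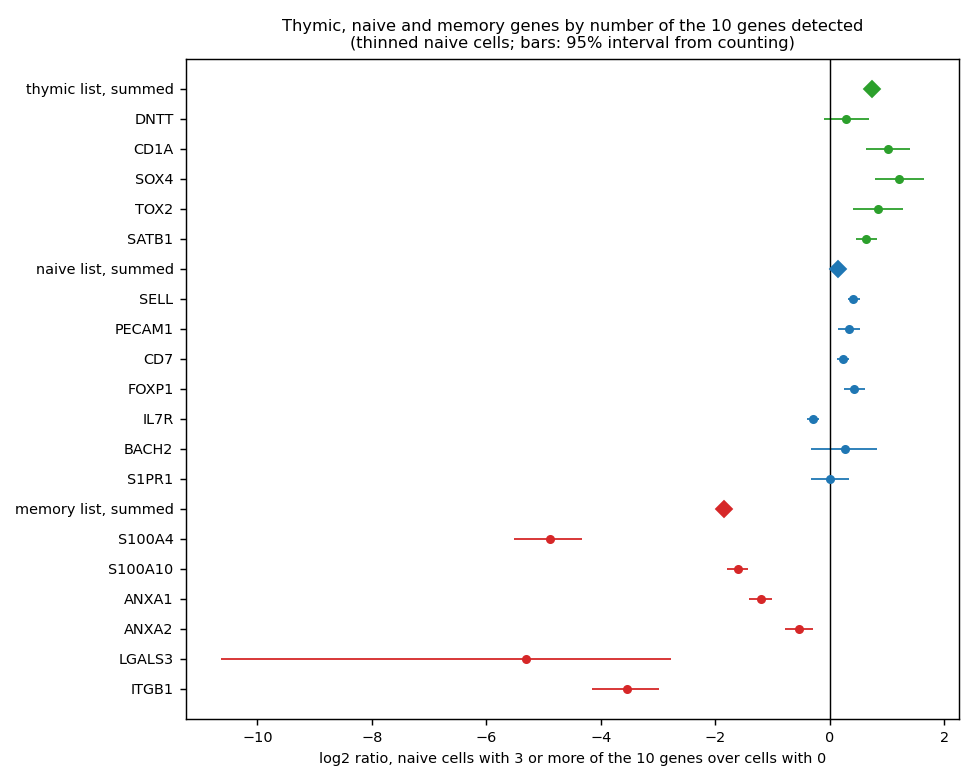
Log2 ratio of thymic, naive and memory genes between thinned naive cells with 3 or more of the 10 genes and cells with none, with 95% intervals from counting. Diamonds are summed lists; the thymic list lies at 0.73, the naive list at 0.14 and the memory list at -1.85.

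Close relatives of the 10 genes ranged from no UMI to 3935 UMIs in kept cells (SDF4, a relative of RCN3). As a background, 9849 of all 29324 genes had 50 or more UMIs over naive and other T cells. Of 47 relatives in the 10 families, 45 were among the symbols, 20 had no UMI and 9 had fewer than 50. Of the 16 with 50 or more, 13 were within 2-fold between naive and other T cells, 2 were at least 2-fold higher in naive cells, beside the 2.76% of all genes, and 1 was lower, beside 8.62%. BEX2, a second small BEX adaptor, and CA8, a carbonic anhydrase relative without catalytic activity, were higher in naive cells, with log2 ratios of 1.11 and 1.66. CA1, the carbonic anhydrase of red blood cells, was lower, with 1 UMI in naive and 36 in other T cells. Those 36 UMIs lay in 17 cells, and 15 cytotoxic cells held 19 of them. GZMK, memory helper and remaining cells had no CA1 UMI, so the difference rests on few cells. BEX4 (65.4 against 33.4 CPM) lay just inside 2-fold. PDE6D, the prenyl-binding subunit relative of PDE6H, was at 22.2 against 31.45 CPM, and the other BAF subunits BCL7B and BCL7C were at 49.7 against 67.2 CPM and at 5.30 against 10.1 CPM. Of the catalytic PDE6 subunits, PDE6B of rods had 69 UMIs in kept cells (2.49 CPM in naive and 1.68 CPM in other T cells), and PDE6A and PDE6C had none.

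Across 14 groups of cells made from class and tag gate, with 5 CPM added before the log2 and the 10 genes themselves left out of the candidates, the profile of RCN3 was most like those of ADA2 (Pearson r = 0.961), SATB1 (0.953) and ORMDL3 (0.949). PDE6H was most like ORMDL3 (0.929), DNTT (0.928) and the unnamed gene ENSMFAG00000036502 (0.928), and BEX3 most like HNRNPA1 (0.961), PPP1R2 (0.956) and TMEM63A (0.947). The groups come from 1 pair of libraries and are not independent. Among the 10 genes themselves, r ran from 0.20 (CHI3L2 and CA6) to 0.95 (RCN3 and RFLNB, and BEX3 and RFLNB), and it was 0.94 for PDE6H and BCL7A.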

How the data were processed

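The authors aligned the 5′ gene library of 1 monkey with Cell Ranger 3.1.0 and STAR 2.5.1b to Macaca_fascicularis_5.0 and, before filtering in Seurat 3.1.3, deposited a matrix of raw counts (UMIs of every gene and antibody tag in every barcode). Barcodes were kept if they held between 200 and 4000 genes and no more than 20% UMIs from mitochondrial genes. The T cell gate asked for at least 2 UMIs of CD3D, CD3E, CD3G and TRAC, under 3 of B cell and under 2 of myeloid genes. Cytotoxic cells had at least 3 UMIs of GZMA, GZMB and NKG7, GZMK cells at least 2 of GZMK and more than of GZMB, and memory helper cells at least 3 of S100A4, ANXA1 and ITGB1 with no granule UMI. Tag thresholds (145.9 CD4 and 504 CD8 UMIs) came from mixtures of 2 normal distributions. UMIs were summed per group, with exact Poisson intervals, binomial (Clopper-Pearson) intervals for shares and for the split of UMIs behind a ratio. A gene was counted past a ratio of 2, and backgrounds cover genes with 50 or more UMIs over both groups. For shares, cells were thinned to 2200 UMIs, which left out 754 shallower cells. Scrublet's automatic threshold called 0 doublets, which does not show that none were present, and no cell was removed. The ratio code was tested on simulated data. The members, gates and gene lists were chosen with earlier results of these data known; genes named beside the members came from family, thymic, naive, memory and regulatory T cell lists and from the 3 most similar profiles of PDE6H, BEX3 and RCN3. Tools were Python 3.11.15, numpy 2.4.6, scipy 1.17.1, scikit-learn 1.9.0 and scanpy 1.11.5. KLF2, S100A11 and LGALS1 of the lists were not among the symbols. Gene coordinates and sequences were not used here.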

Additional observations from a re-analysis of the deposited data

Results flagged for a closer look

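For 3 genes the difference between tag gates had opposite signs in naive and in cytotoxic cells, with both intervals away from 0; the difference between the contrasts was not tested. The log2 ratio of CD4hiCD8hi over CD4hiCD8lo cells was -0.81 in naive and 1.75 in cytotoxic cells for PDE6H, -0.58 and 1.39 for RCN3, and -0.24 and 1.66 for RFLNB. High Scrublet scores were found in 21.7% of the cytotoxic CD4hiCD8hi and 7.36% of the cytotoxic CD4hiCD8lo cells. Without the high-scoring cells, none of the 10 genes had 50 UMIs over both cytotoxic gates, and the interval of PDE6H included 0.

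Some of the 10 genes had more than 3 UMIs in barcodes that no comparison of T cells used. In B control cells BCL7A had 93.81 CPM, and RCN3 and RFLNB had 7.216 CPM each, from 4 UMIs. In the 123 barcodes removed by the filter, RCN3 had 62.12 CPM, RFLNB and CHI3L2 58.67 CPM each, PDE6H, BEX3 and CA6 17.26 CPM each, and GPC2 and BCL7A 13.81 CPM each.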

How the results depend on the processing

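Of 61 values of the 5 main comparisons under other settings, 45 stayed within 1.5 times a count or inside the reported interval and 16 moved. The thymic log2 ratio kept its sign, and the other main comparisons are counts or a share, which cannot change sign. The count of genes at least 2-fold higher in naive than other T cells fell from 10 to 1 when each of CCR7, LEF1 and TCF7 needed a UMI and to 2 with at least 5 naive UMIs, settings that by construction place naive-marker cells among the other T cells. The count for FOXP3-positive cells, 3 as reported, was 1 under these 2 settings and 1 by the mean over cells, and 6 without the remaining cells. The count for naive CD4loCD8hi cells, 5 as reported, was 3 with a UMI of each naive gene. The share of naive cells with 2 or more genes, 41.59%, was 57.26% without thinning and 27.34% at 1500 UMIs, so it follows depth. It was 43.65% with a UMI of each naive gene, 43.31% with at least 5 naive UMIs, 43.13% without the deepest 5% of cells and 46.65% without cells with S100A4 or ITGB1. The thymic log2 ratio, 0.73, was 0.87 without the condition on granule genes, 0.92 without thinning and 0.49 without cells with S100A4 or ITGB1. For single genes, 308 of 390 ratios stayed within the reported interval and 79 moved. The 3 that changed sign concerned FOXP3-positive against other T cells: PDE6H at 0.03 with at least 2 naive UMIs and 0.97 without the remaining cells, and RFLNB at -0.04 with a UMI of each naive gene. Leaving out the remaining cells or those with S100A4 or ITGB1 was chosen after seeing the data. Of 9 most similar genes, 7 stayed with 1 CPM added. No paired analysis was possible because there is 1 animal.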
